A study of Mus musculus with 9 samples.

Results

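The genes described here mostly encode spliceosome proteins and splicing regulators. They are 70 mouse genes whose array platform symbol starts with Snrp, Srsf, Prpf, Lsm, U2af or Hnrnp, together with Dnajc8, Rbm17 and Puf60. All were taken from 22180 genes with a probe set of a single symbol. The genes were chosen by symbol prefix or by name, with earlier results of these data known. By prefix, 9 were Snrp genes, 10 Srsf, 12 Prpf, 14 Lsm, 3 U2af and 19 Hnrnp, and 3 were added by name. The subunits of SF3a and SF3b, the complexes to which Phf5a belongs, were not among the 70. The Lsm prefix also took in Lsmem1, which encodes a leucine-rich single-pass membrane protein and not an LSm protein, and the Hnrnp prefix took in the pseudogene Hnrnpa1l2-ps2.

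Splicing removes introns from pre-mRNA and is carried out by the spliceosome, which assembles on each intron from small nuclear ribonucleoproteins (snRNPs). The U1 snRNP binds the start of the intron, the U2AF proteins and then the U2 snRNP bind near its end, and the U4/U6.U5 tri-snRNP joins before catalysis. Rings of Sm proteins sit on the U1, U2, U4 and U5 RNAs, and a ring of LSm proteins sits on the U6 RNA. SR proteins (Srsf) bind exons and mostly promote their inclusion, while hnRNPs coat nascent RNA and often act against them.

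RNA was measured on 9 Affymetrix whole-transcript arrays of Nanog-GFP (NG4) reporter embryonic stem cells of the 129/Sv strain, grown on gelatin in medium that contained LIF, a cytokine that holds them in the undifferentiated state. A pLKO.1-based lentivirus had brought in a short hairpin against Phf5a (shPhf5a), a hairpin against Paf1 (shPaf1) or a control hairpin (shControl), with 3 arrays in each group, and all groups had then been kept in puromycin at 2 μg/mL for 72 h. Phf5a is a small PHD-finger protein that is a subunit of SF3b in the U2 snRNP, and Paf1 gives its name to a complex that travels with elongating RNA polymerase II. The series' title places Phf5a in the regulation of transcriptional elongation, so the design asks how far loss of a splicing subunit and loss of an elongation factor change the same transcripts. Each target is represented by 1 hairpin, and the hairpin sequences were not used here. Nothing in the labels says that the arrays of a group came from separate cultures: the p-values then measure only how these arrays vary, which may be technical variation.

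All values are the deposited log2 expression values, and differences are in log2 units, so that 1 unit is a factor of 2. Both targets were checked first. Phf5a read 10.40, 11.10 and 10.60 on the shPhf5a arrays, 11.30, 11.25 and 11.55 on the shPaf1 arrays and 11.84, 12.09 and 11.89 on the shControl arrays. Its difference from shControl was -1.24 (SE 0.16, adjusted p = 0.00024) in shPhf5a and -0.57 (SE 0.16, adjusted p = 0.0183) in shPaf1, so that Phf5a fell in both knockdowns. The fall of Phf5a in shPaf1 was lost without shPaf1 replicate 1 or 2 or shControl replicate 2 (adjusted p = 0.0632 to 0.0742). Paf1 read 9.70, 10.02 and 9.79 on the shPhf5a arrays, 8.68, 8.72 and 8.69 on the shPaf1 arrays and 10.09, 10.11 and 10.05 on the shControl arrays. Paf1 fell by 1.39 in shPaf1 (SE 0.08, adjusted p = 1.73e-06) and its difference in shPhf5a was -0.25 (SE 0.08, adjusted p = 0.0267). The second fall was lost without shPhf5a replicate 1 or 3 or shControl replicate 1 or 2 (adjusted p = 0.0737 to 0.0867). The 3 shPhf5a arrays held 34.4%, 55.9% and 39.6% of the mean control level of Phf5a. Replicate 2, with the weakest depletion, stood apart from the other two: its mean correlation with the shControl arrays over all genes was 0.9861, against 0.9723 for replicate 1 and 0.9751 for replicate 3. Array medians lay between 6.22 and 6.31, and 3 arrays per group limit how precise any value can be. As the RNA came from whole cultures, fewer cells of a type and less RNA per cell cannot be told apart. Of 12 embryonic stem cell markers, 9 fell and 0 rose in shPhf5a, and 10 fell and 0 rose in shPaf1. Of 11 measured fibroblast markers, 2 rose and 1 fell in shPhf5a, and 5 rose and 0 fell in shPaf1. The median of the fibroblast list lay 0.12 to 0.29 above the shControl mean on the shPaf1 arrays and between -0.01 and 0.01 on the shPhf5a arrays, and the part of other cells in the results below was not tested. Of 6 measured macrophage and blood markers, 0 rose and 1 fell in shPhf5a, and 1 rose and 0 fell in shPaf1. Over all genes tested, 16.7% rose and 20.7% fell in shPhf5a, and 18% rose and 17.8% fell in shPaf1.

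The 70 genes were mostly lower after both knockdowns. In shPhf5a 36 fell and 9 rose, and in shPaf1 31 fell and 6 rose, by limma's moderated test at an adjusted p under 0.05. The median difference over the 70 genes was -0.21 in shPhf5a and -0.18 in shPaf1, against medians of -0.03 and -0.01 over all genes tested. After quantile normalization of the arrays the shPhf5a median was -0.13, with 29 genes lower and 12 higher. In shPhf5a the called share was 64.3% of the 70 genes, and 37.4% of all genes tested were called, 16.7% as higher and 20.7% as lower. In shPaf1 the called share was 52.9%, and 35.8% of all genes were called, 18% as higher and 17.8% as lower. Most changes were small: in shPhf5a 1 gene rose and 2 fell by at least 2-fold, and in shPaf1 0 rose and 1 fell by as much. Dnajc8, which was added by name, was among those that fell in each knockdown. Of all 22180 genes tested, 459 rose and 270 fell by as much in shPhf5a, and 423 rose and 217 fell in shPaf1.

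The probe sets of these genes were brighter than most, and bright probe sets were called more often over the whole array. Of the 70 genes, 68 lay above the median brightness of all genes (6.70), and their own median was 10.12. Among the 2107 genes brighter than 10.12, which include 35 of the 70, 63.8% were called in shPhf5a (21.5% higher, 42.3% lower) and 62.2% in shPaf1 (22.3% higher, 39.9% lower). Of those 35 brighter members, 19 fell and 6 rose in shPhf5a (71.4% called, 54.3% lower), and 19 fell and 4 rose in shPaf1 (65.7% called, 54.3% lower). Their median difference was -0.18 in shPhf5a and -0.19 in shPaf1, against -0.10 in each knockdown for the 2107 bright genes. No test was made between these shares, and the comparison with bright genes was chosen after seeing the data.

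Without shPhf5a replicate 2, 40 of the genes fell and 8 rose in shPhf5a, with 39.8% of all genes called. In shPaf1 36 then fell and 6 rose, with 39% of all genes called (19.7% lower). The arrays of shPhf5a and shControl did not overlap for 53 of the 70 genes, against 45.8% of all genes, and those of shPaf1 and shControl for 51 of the 70, against 48.3% of all genes.

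**Figure D1:**
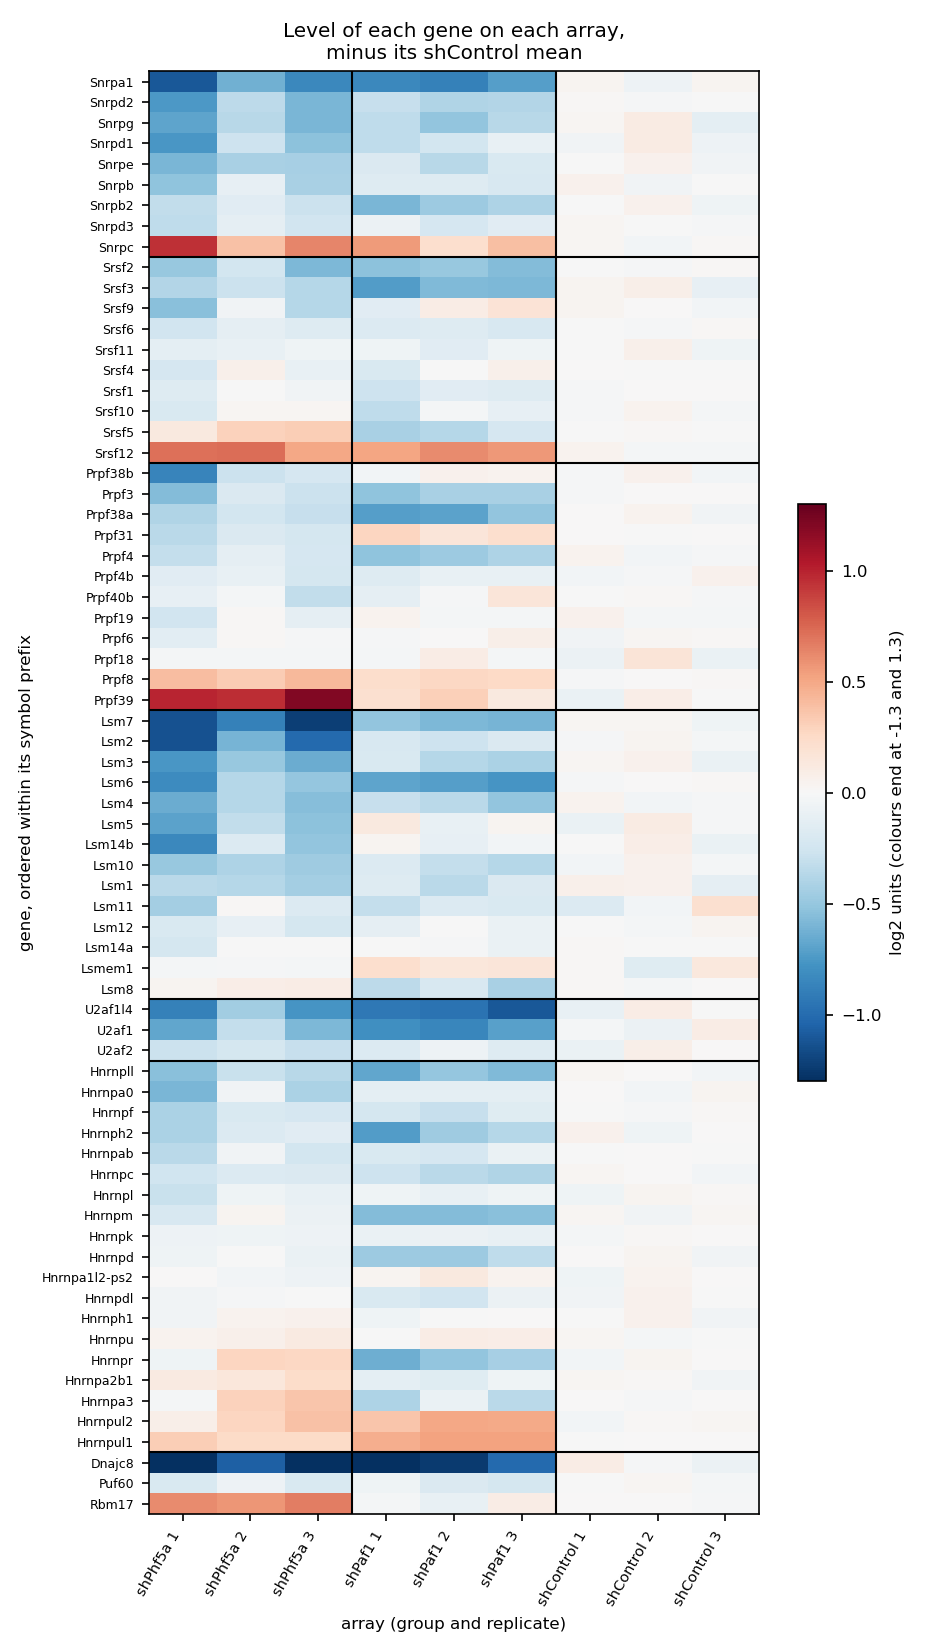
Level of each of the 70 genes on each of the 9 arrays, as the difference from its shControl mean in log2 units (blue lower, red higher), with columns for the shPhf5a, shPaf1 and shControl arrays and rows grouped by symbol prefix. Most rows of the Snrp, Lsm and U2af blocks are blue in both knockdowns, shPhf5a replicate 2 is paler than replicates 1 and 3 in most rows, and Snrpc, Srsf12, Prpf8, Prpf39, Hnrnpul1 and Hnrnpul2 are red on all 6 knockdown arrays.

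The prefix groups differed in how uniformly they moved. In shPhf5a all 9 Snrp genes were called, 8 as lower and 1 as higher, with a median of -0.48. Of the 14 Lsm genes 10 fell and 0 rose, with a median of -0.48, and all 3 U2af genes fell, with a median of -0.52. The other groups were mixed. Of the 12 Prpf genes 6 fell and 2 rose (median -0.15, or -0.089 after quantile normalization), of the 10 Srsf genes 3 fell and 2 rose (median -0.09), and of the 19 Hnrnp genes 5 fell and 3 rose (median -0.05). The Srsf median was -0.019 after quantile normalization, -0.052 without shPhf5a replicate 1 and -0.13 without shPhf5a replicate 2. The Hnrnp median was 0.021 after quantile normalization, -0.089 after centring of the arrays, -0.083 over means of probe sets and -0.030 without shControl replicate 2. Called shares were 100% for Snrp and U2af, 71.4% for Lsm, 66.7% for Prpf, 50% for Srsf and 42.1% for Hnrnp genes. Of all genes tested 37.4% were called in shPhf5a, and of those brighter than 10.12 63.8% were. The Hnrnp share lay near that of all genes.

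In shPaf1 the order of the groups changed in part. Of the 9 Snrp genes 5 fell and 1 rose (median -0.25), of the 14 Lsm genes 7 fell and 0 rose (median -0.23), and of the 3 U2af genes 2 fell and 0 rose (median -0.79). Of the 10 Srsf genes 5 fell and 1 rose (median -0.17, or -0.11 after quantile normalization), of the 19 Hnrnp genes 8 fell and 2 rose (median -0.16, or -0.081 after quantile normalization), and of the 12 Prpf genes 3 fell and 2 rose (median 0.011, or -0.012 after quantile normalization and -0.011 after centring of the arrays). Without single arrays that Prpf median was 0.0355 (shPaf1 replicate 1), 0.0018 (shPaf1 replicate 3), 0.0039, 0.0283 and -0.0081 (shControl replicates 1, 2 and 3). The medians of Snrp and Lsm genes lay further from 0 in shPhf5a than in shPaf1, and those of Srsf, U2af and Hnrnp genes further from 0 in shPaf1. Called shares in shPaf1 were 66.7% for Snrp and U2af, 60% for Srsf, 52.6% for Hnrnp, 50% for Lsm and 41.7% for Prpf genes. Of all genes tested 35.8% were called in shPaf1, and of those brighter than 10.12 62.2% were. The Prpf share lay near that of all genes. The 2 comparisons share the shControl arrays, and groups of genes were not tested against each other.

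**Figure D2:**
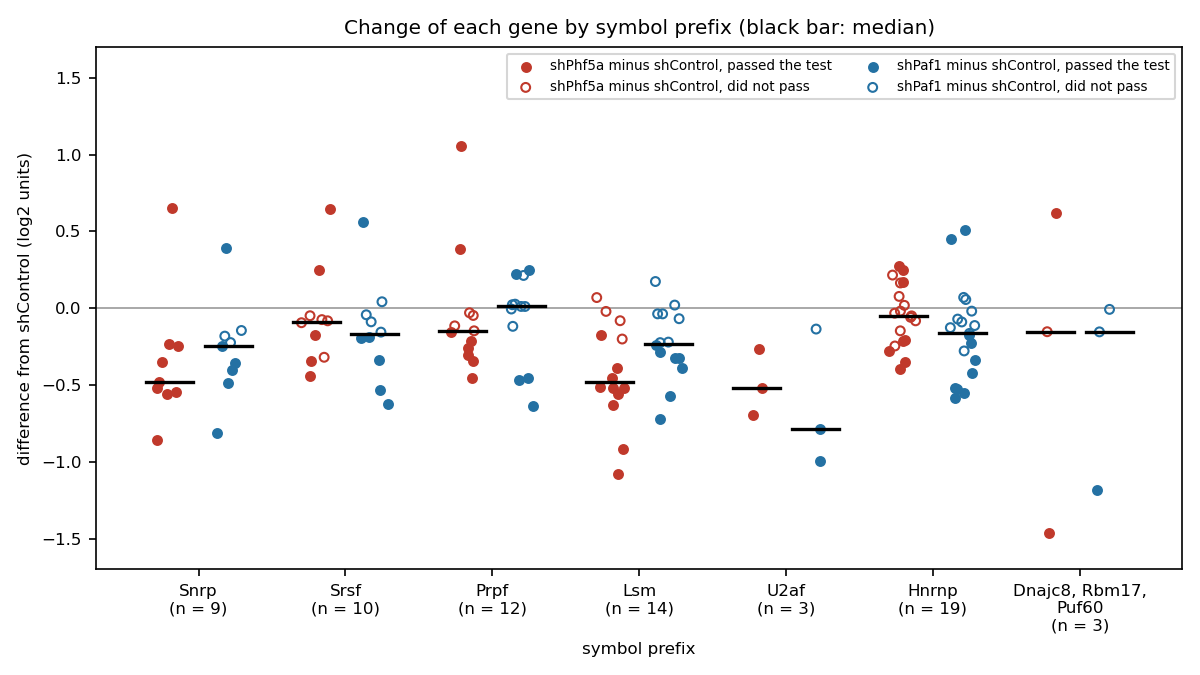
Difference from shControl in log2 units for each of the 70 genes by symbol prefix, in shPhf5a (red, left in each pair) and shPaf1 (blue, right); filled points passed the test at an adjusted p under 0.05, open points did not, and black bars are medians. Snrp genes in shPhf5a lie below 0 except Snrpc, Lsm points gather below 0 in both, and Hnrnp points spread to both sides of 0.

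Among the shPhf5a arrays, replicate 2 lay nearest to the controls in the median of every prefix group and of the 3 added genes. Over the Snrp genes the median difference from the shControl mean was -0.60, -0.27 and -0.43 on the shPhf5a arrays and -0.30, -0.36 and -0.21 on the shPaf1 arrays. Over the Lsm genes it was -0.56, -0.35 and -0.48 on the shPhf5a arrays and -0.19, -0.24 and -0.19 on the shPaf1 arrays. No shPhf5a array overlapped a shPaf1 array in the Lsm medians, whereas in the Snrp medians shPhf5a replicate 2 lay within the range of the shPaf1 arrays. Over the U2af genes the median was -0.67, -0.31 and -0.59 on the shPhf5a arrays and -0.80, -0.85 and -0.71 on the shPaf1 arrays.

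**Figure D3:**
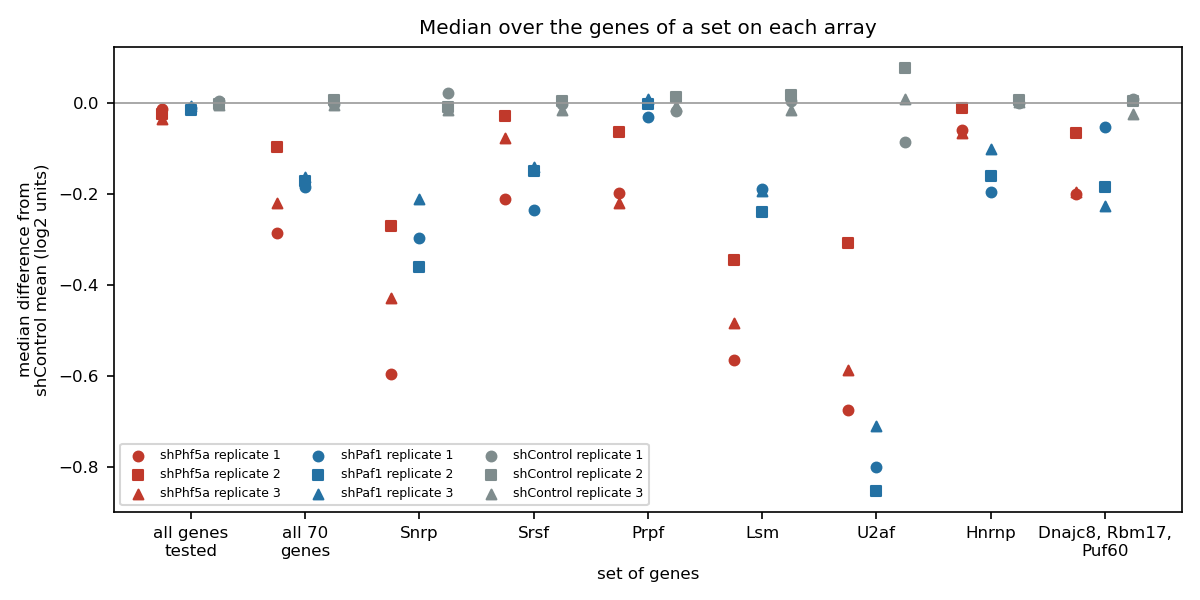
Median difference from the shControl mean in log2 units over the genes of each set, one point per array (circle, square and triangle for replicates 1, 2 and 3), for shPhf5a (red), shPaf1 (blue) and shControl (grey). All genes tested stay near 0 on every array, while the Snrp, Lsm and U2af medians of all 6 knockdown arrays lie below those of the shControl arrays.

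4 genes led the list: Dnajc8 had the largest fall in both knockdowns, Lsm7 the largest fall of an LSm gene in shPhf5a, Prpf39 the largest rise in shPhf5a and Srsf12 the largest rise in shPaf1. Dnajc8 was added by name with earlier results of these data known, so its rank is not independent of that choice. Among the genes taken by prefix, Lsm7 fell most in shPhf5a (-1.08) and U2af1l4 in shPaf1 (-0.99). Some genes that fell, such as Lsm2 and Snrpa1, moved further than Srsf12. The promoters of the 4 genes are shown because of the ranks given here. They are the RefSeq windows from 250 bases before to 50 bases after the start, in GRCm38.p6 coordinates. Dnajc8 lies at chr4:132535309-132535608 on the plus strand, Lsm7 at chr10:80855160-80855459 on the minus strand, Prpf39 at chr12:65036084-65036383 on the plus strand and Srsf12 at chr4:33209022-33209321 on the plus strand. Capitals mark the E-box CACGTG and the GC box GGGCGG on either strand (as CCGCCC on the other), each 5′ to 3′ in the direction of the gene.
Dnajc8: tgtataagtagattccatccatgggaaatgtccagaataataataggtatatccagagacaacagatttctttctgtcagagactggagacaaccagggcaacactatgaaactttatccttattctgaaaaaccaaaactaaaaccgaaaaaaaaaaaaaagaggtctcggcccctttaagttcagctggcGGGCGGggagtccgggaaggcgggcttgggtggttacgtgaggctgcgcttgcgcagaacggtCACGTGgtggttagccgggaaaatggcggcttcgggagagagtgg
Lsm7: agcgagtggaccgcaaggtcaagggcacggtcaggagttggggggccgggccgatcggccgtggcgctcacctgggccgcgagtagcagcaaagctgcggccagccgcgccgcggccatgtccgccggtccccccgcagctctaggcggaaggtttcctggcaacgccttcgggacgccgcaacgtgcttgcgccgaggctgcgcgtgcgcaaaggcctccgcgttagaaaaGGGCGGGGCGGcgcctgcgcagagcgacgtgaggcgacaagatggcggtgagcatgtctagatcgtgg
Prpf39: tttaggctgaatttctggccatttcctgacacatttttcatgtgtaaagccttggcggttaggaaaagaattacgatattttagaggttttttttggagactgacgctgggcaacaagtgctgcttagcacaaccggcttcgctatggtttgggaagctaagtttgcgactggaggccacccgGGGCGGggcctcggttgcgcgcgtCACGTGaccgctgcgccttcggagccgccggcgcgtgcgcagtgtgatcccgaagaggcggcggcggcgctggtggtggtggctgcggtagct
Srsf12: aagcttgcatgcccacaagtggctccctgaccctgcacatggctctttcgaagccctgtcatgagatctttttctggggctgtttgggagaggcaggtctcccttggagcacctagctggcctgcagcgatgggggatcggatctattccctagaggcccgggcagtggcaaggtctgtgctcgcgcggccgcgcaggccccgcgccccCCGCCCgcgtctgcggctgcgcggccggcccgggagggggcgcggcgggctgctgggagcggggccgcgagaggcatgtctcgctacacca
An E-box stood in the windows of Dnajc8 and Prpf39, which moved in opposite directions in shPhf5a. GC boxes stood in all 4 windows, and those of Lsm7 were 2 that overlap. The table holds a further start for Lsm7, which is not shown. None of the 4 windows held CCAAT or TATAAA on either strand, and all 4 held the short ETS core GGAA.

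Of the 70 genes, 60 had a promoter window in the RefSeq table. GGGCGG was present in 42 of those 60 windows (70%), against 35.9% of the 27025 windows in the table, and CCAAT in 32 (53.3%), against 37.9%. CACGTG was present in 8 (13.3%), against 7.24%, TATAAA in 5 (8.33%), against 14.2%, and GGAA in 58 (96.7%), against 95.9%. Both strands were searched, each gene's first listed window was used, and the motifs do not contain each other. By direction, GGGCGG stood in 69% of 29 windows of genes that fell in shPhf5a and in 62.5% of 8 windows of genes that rose, and in 67.9% of 28 that fell and 40% of 5 that rose in shPaf1. CCAAT stood in 55.2% of windows of genes that fell and 50% of those that rose in shPhf5a, and in 39.3% and 60% in shPaf1. CACGTG stood in 6.9% of windows of genes that fell and 12.5% of those that rose in shPhf5a, and in 17.9% and 0% in shPaf1. With so few windows of genes that rose, these shares were not tested. A match describes letters in a window and not a bound site.

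Dnajc8 encodes a J-domain co-chaperone found in spliceosomes. It read 8.69, 9.44 and 8.97 on the shPhf5a arrays, 9.19, 9.25 and 9.49 on the shPaf1 arrays and 10.60, 10.48 and 10.42 on the shControl arrays. All 6 knockdown arrays lay well below the 3 control arrays, with shPhf5a replicate 1 the lowest, and the knockdowns overlapped each other. Its difference was -1.47 (SE 0.16, adjusted p = 9.74e-05) in shPhf5a and -1.19 (SE 0.16, adjusted p = 0.000289) in shPaf1, which is 2.76-fold lower in shPhf5a and 2.28-fold lower in shPaf1. Between the knockdowns it differed by -0.28 (SE 0.16, adjusted p = 0.256), which did not pass the test.

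Rbm17 and Puf60 act early in spliceosome assembly: Rbm17 is an alternative splicing factor that contacts SF3b, and Puf60 is a relative of U2af2 that binds uridine-rich tracts. Rbm17 read 11.22, 11.18 and 11.27 on the shPhf5a arrays, 10.58, 10.51 and 10.71 on the shPaf1 arrays and 10.62, 10.61 and 10.59 on the shControl arrays. Its shPhf5a arrays all lay above the others, and its shPaf1 arrays straddled the controls. Rbm17 rose by 0.62 in shPhf5a (SE 0.06, adjusted p = 3.8e-05), and its value in shPaf1 was -0.01 (SE 0.06, adjusted p = 0.945). The direct difference, shPhf5a minus shPaf1, was 0.63 (SE 0.06, adjusted p = 4.49e-05). Puf60 read 11.04, 11.17 and 11.04 on the shPhf5a arrays, 11.18, 11.05 and 11.01 on the shPaf1 arrays and 11.24, 11.26 and 11.21 on the shControl arrays. All 6 knockdown arrays were below the controls by little, and the differences of -0.15 (SE 0.06, adjusted p = 0.0724) in shPhf5a and -0.15 (SE 0.06, adjusted p = 0.074) in shPaf1 did not pass the test.

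**Figure D4:**
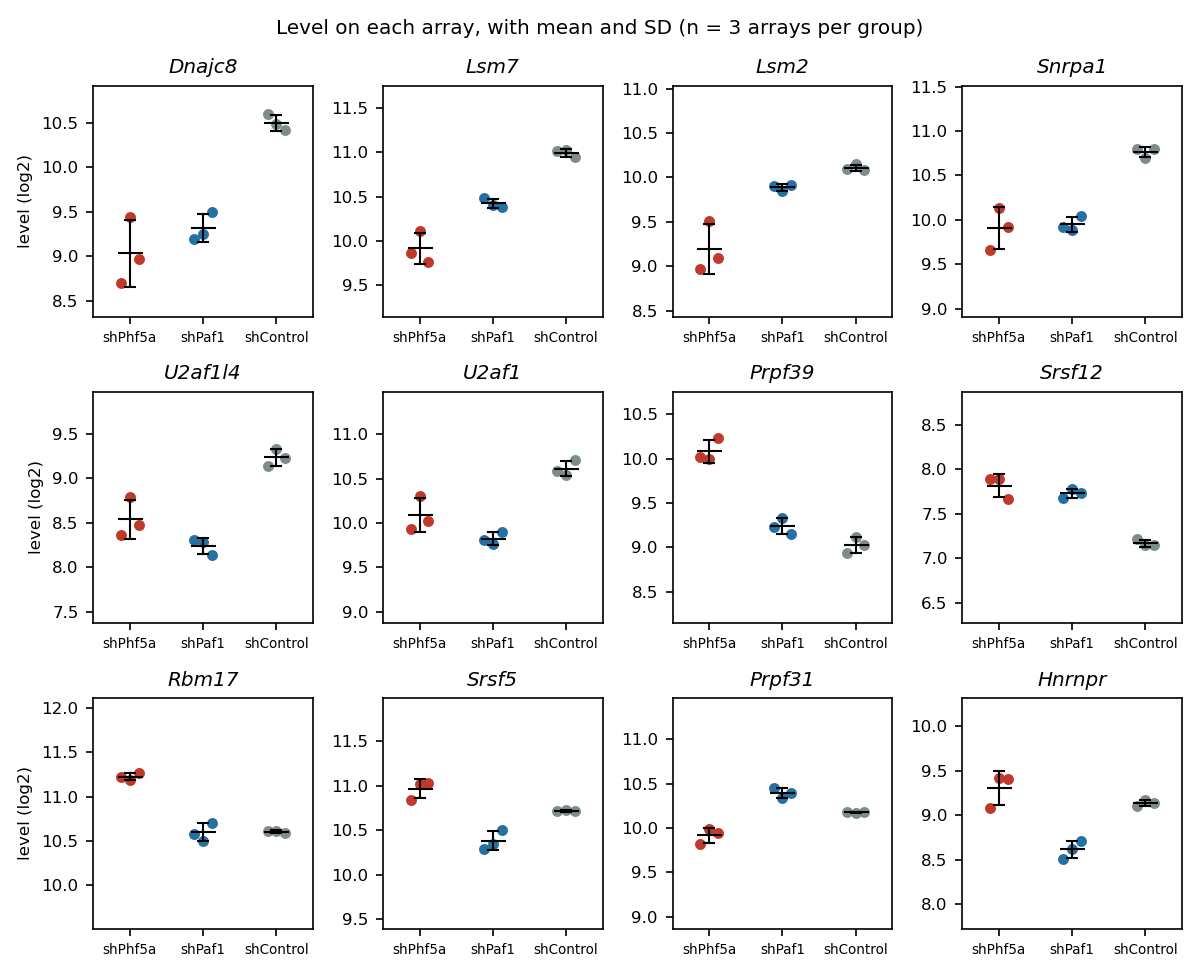
Log2 level of 12 genes on each array (points), with the mean and SD of each group (n = 3 arrays), for shPhf5a, shPaf1 and shControl; each panel spans the same 2.6 log2 units. Dnajc8, Snrpa1, U2af1l4 and U2af1 are low in both knockdowns, Lsm2 and Lsm7 lowest in shPhf5a, Prpf39 and Rbm17 high in shPhf5a, and Srsf5 and Prpf31 lie on opposite sides of the controls in shPhf5a and shPaf1.

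Among the Snrp genes, the 6 measured Sm ring proteins (Snrpb, Snrpd1, Snrpd2, Snrpd3, Snrpe and Snrpg) all fell in shPhf5a, by 0.23 to 0.56, with a median of -0.50. In shPaf1 their differences ran from -0.40 to -0.15, and the 3 that fell were Snrpd2, Snrpe and Snrpg. A second, dimmer probe set of Snrpd1 was lower in shPaf1 by more than the one used, as given with the other probe sets. Snrpd2 read 6.51, 6.92 and 6.66 on the shPhf5a arrays, 6.96, 6.86 and 6.88 on the shPaf1 arrays and 7.27, 7.25 and 7.26 on the shControl arrays. Its difference was -0.56 (SE 0.09, adjusted p = 0.000769) in shPhf5a and -0.36 (SE 0.09, adjusted p = 0.0105) in shPaf1. Snrpg read 9.19, 9.52 and 9.29 on the shPhf5a arrays, 9.55, 9.37 and 9.52 on the shPaf1 arrays and 9.90, 9.99 and 9.75 on the shControl arrays. Its difference was -0.55 (SE 0.09, adjusted p = 0.00119) in shPhf5a and -0.40 (SE 0.09, adjusted p = 0.00719) in shPaf1. For both genes all knockdown arrays lay below all control arrays, and the knockdowns overlapped. The fall of Snrpb in shPhf5a was lost without shPhf5a replicate 3 or shControl replicate 1 (adjusted p = 0.0506 to 0.0523). The fall of Snrpe in shPaf1 was lost without shPaf1 replicate 2 or shControl replicate 2 (adjusted p = 0.062 to 0.0644).

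The U2 snRNP proteins Snrpa1 (U2-A′) and Snrpb2 (U2-B″), which bind a stem-loop of U2 RNA together, fell in both knockdowns. Snrpa1 read 9.66, 10.14 and 9.92 on the shPhf5a arrays, 9.92, 9.88 and 10.05 on the shPaf1 arrays and 10.80, 10.69 and 10.79 on the shControl arrays. Its difference was -0.86 (SE 0.10, adjusted p = 0.000175) in shPhf5a and -0.81 (SE 0.10, adjusted p = 0.000207) in shPaf1, and its direct difference of -0.04 (SE 0.10, adjusted p = 0.832) did not pass the test. Snrpb2 read 9.64, 9.82 and 9.69 on the shPhf5a arrays, 9.37, 9.49 and 9.56 on the shPaf1 arrays and 9.96, 10.02 and 9.91 on the shControl arrays. Its difference was -0.25 (SE 0.07, adjusted p = 0.0143) in shPhf5a and -0.49 (SE 0.07, adjusted p = 0.000295) in shPaf1. All 6 knockdown arrays of both genes lay below the controls, those of shPaf1 lowest for Snrpb2. Without shControl replicate 2 (adjusted p = 0.0565), the fall of Snrpb2 in shPhf5a was lost. Snrpb2 differed between the knockdowns by 0.24 (SE 0.07, adjusted p = 0.0226), which was lost without shPhf5a replicate 2 or shPaf1 replicate 1 or 2 (adjusted p = 0.0556 to 0.0858).

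Snrpc (U1-C), which stabilises U1 on the start of the intron, was the exception among the Snrp genes. It read 8.87, 8.31 and 8.55 on the shPhf5a arrays, 8.48, 8.14 and 8.32 on the shPaf1 arrays and 7.95, 7.88 and 7.93 on the shControl arrays. All 6 knockdown arrays lay above the controls, with shPhf5a replicate 1 the highest and the knockdowns overlapping. Its difference was 0.65 (SE 0.13, adjusted p = 0.00273) in shPhf5a and 0.39 (SE 0.13, adjusted p = 0.0398) in shPaf1. The rise in shPaf1 was lost without shPhf5a replicate 3, shPaf1 replicate 1 or 3 or shControl replicate 1, 2 or 3 (adjusted p = 0.0571 to 0.147).

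Among the Lsm genes, 6 of the 7 that form the LSm2 to LSm8 ring on U6 RNA fell in shPhf5a, with a median of -0.56, and 5 of the 7 fell in shPaf1, with a median of -0.33. Lsm7 read 9.87, 10.11 and 9.77 on the shPhf5a arrays, 10.48, 10.41 and 10.39 on the shPaf1 arrays and 11.02, 11.02 and 10.94 on the shControl arrays. The 3 groups did not overlap, with shPhf5a lowest and shPaf1 between it and the controls. Its difference was -1.08 (SE 0.08, adjusted p = 1.29e-05) in shPhf5a and -0.57 (SE 0.08, adjusted p = 0.000378) in shPaf1, and the direct difference, shPhf5a minus shPaf1, was -0.51 (SE 0.08, adjusted p = 0.00116). Lsm2 read 8.97, 9.51 and 9.10 on the shPhf5a arrays, 9.90, 9.84 and 9.92 on the shPaf1 arrays and 10.09, 10.15 and 10.09 on the shControl arrays. Here, too, the groups did not overlap, but the shPaf1 arrays lay close to the controls. Its difference was -0.92 (SE 0.11, adjusted p = 0.000182) in shPhf5a and -0.22 (SE 0.11, adjusted p = 0.176) in shPaf1, of which the second did not pass, and the direct difference was -0.70 (SE 0.11, adjusted p = 0.00129).

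Lsm3 read 11.14, 11.41 and 11.26 on the shPhf5a arrays, 11.70, 11.53 and 11.49 on the shPaf1 arrays and 11.93, 11.95 and 11.81 on the shControl arrays. Its difference was -0.63 (SE 0.08, adjusted p = 0.000214) in shPhf5a and -0.33 (SE 0.08, adjusted p = 0.00908) in shPaf1, with the groups in the same order as for Lsm7 and no overlap. Lsm3 differed between the knockdowns by -0.30 (SE 0.08, adjusted p = 0.0177), which was lost without shPhf5a replicate 1 or 3 or shPaf1 replicate 1 (adjusted p = 0.0546 to 0.0694). Lsm6 read 9.29, 9.73 and 9.60 on the shPhf5a arrays, 9.42, 9.38 and 9.33 on the shPaf1 arrays and 10.08, 10.11 and 10.11 on the shControl arrays, so that the knockdowns overlapped each other well below the controls. Its difference was -0.56 (SE 0.10, adjusted p = 0.00122) in shPhf5a and -0.72 (SE 0.10, adjusted p = 0.000248) in shPaf1. Lsm4 read 11.46, 11.73 and 11.56 on the shPhf5a arrays, 11.80, 11.75 and 11.59 on the shPaf1 arrays and 12.15, 12.07 and 12.09 on the shControl arrays, again with both knockdowns below the controls and overlapping. Its difference was -0.52 (SE 0.08, adjusted p = 0.000559) in shPhf5a and -0.39 (SE 0.08, adjusted p = 0.00302) in shPaf1.

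Lsm5 and Lsm8 moved in 1 knockdown each. Lsm5 read 6.36, 6.73 and 6.52 on the shPhf5a arrays, 7.18, 6.96 and 7.09 on the shPaf1 arrays and 6.97, 7.16 and 7.04 on the shControl arrays. Only its shPhf5a arrays lay below the controls. Its difference was -0.52 (SE 0.10, adjusted p = 0.00205) in shPhf5a and 0.02 (SE 0.10, adjusted p = 0.915) in shPaf1, and the direct difference was -0.54 (SE 0.10, adjusted p = 0.00239). Lsm8, the subunit that makes the ring nuclear and U6-bound, read 10.89, 10.94 and 10.95 on the shPhf5a arrays, 10.52, 10.65 and 10.44 on the shPaf1 arrays and 10.88, 10.84 and 10.86 on the shControl arrays. Its shPaf1 arrays lay below the controls, and its shPhf5a arrays lay barely above them. The difference of Lsm8 was 0.07 (SE 0.06, adjusted p = 0.41) in shPhf5a and -0.33 (SE 0.06, adjusted p = 0.00141) in shPaf1, and the direct difference was 0.40 (SE 0.06, adjusted p = 0.000679).

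Lsm1 takes the place of Lsm8 in the cytoplasmic ring that binds decaying mRNA, and Lsm10 and Lsm11 belong to the U7 snRNP, which processes the ends of histone mRNAs. Lsm1 differed by -0.39 (SE 0.07, adjusted p = 0.00126) in shPhf5a and -0.24 (SE 0.07, adjusted p = 0.0191) in shPaf1. The fall of Lsm1 in shPaf1 was lost without shPaf1 replicate 2 or shControl replicate 1 or 2 (adjusted p = 0.0715 to 0.0761). Lsm10 fell by 0.45 in shPhf5a (adjusted p = 0.000262) and by 0.29 in shPaf1 (adjusted p = 0.0038), whereas Lsm11 differed by -0.20 (adjusted p = 0.247) and -0.22 (adjusted p = 0.206) and did not pass. Lsm14b, of cytoplasmic mRNA granules, differed by -0.51 (SE 0.14, adjusted p = 0.0143) in shPhf5a and -0.04 (SE 0.14, adjusted p = 0.885) in shPaf1. Its fall in shPhf5a was lost without shControl replicate 2 (adjusted p = 0.056). Its direct difference of -0.47 (SE 0.14, adjusted p = 0.0265) was lost without shPhf5a replicate 3 or shPaf1 replicate 1, 2 or 3 (adjusted p = 0.0529 to 0.09), and the difference was -0.31 without shPhf5a replicate 1. Its paralogue Lsm14a differed by -0.08 and -0.04 and did not pass in either knockdown. Lsm12 fell by 0.18 in shPhf5a (adjusted p = 0.024), a call that was lost without shPhf5a replicate 1 or 3 or shControl replicate 1 or 3 (adjusted p = 0.0546 to 0.0841). Without Lsmem1, which did not pass in either knockdown, the medians of the 13 remaining Lsm genes were -0.51 in shPhf5a and -0.24 in shPaf1.

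U2af2 reads the pyrimidine tract and U2af1 the AG at the end of the intron, and U2af1l4 is a paralogue of U2af1. U2af1 read 9.94, 10.31 and 10.03 on the shPhf5a arrays, 9.81, 9.76 and 9.90 on the shPaf1 arrays and 10.59, 10.54 and 10.71 on the shControl arrays. U2af1l4 read 8.36, 8.79 and 8.47 on the shPhf5a arrays, 8.31, 8.28 and 8.14 on the shPaf1 arrays and 9.14, 9.34 and 9.24 on the shControl arrays. In both genes the knockdowns lay below the controls and shPaf1 lay below shPhf5a, without overlap. U2af1 differed by -0.52 (SE 0.09, adjusted p = 0.0014) in shPhf5a and -0.79 (SE 0.09, adjusted p = 0.000112) in shPaf1, and U2af1l4 by -0.70 (SE 0.10, adjusted p = 0.000565) in shPhf5a and -0.99 (SE 0.10, adjusted p = 5.83e-05) in shPaf1. The direct differences, 0.26 (SE 0.09, adjusted p = 0.058) for U2af1 and 0.30 (SE 0.10, adjusted p = 0.06) for U2af1l4, did not pass. U2af2 read 11.16, 11.21 and 11.14 on the shPhf5a arrays, 11.26, 11.37 and 11.26 on the shPaf1 arrays and 11.35, 11.51 and 11.44 on the shControl arrays, with all shPhf5a arrays below the controls and shPaf1 overlapping them. Its difference was -0.27 (SE 0.06, adjusted p = 0.0041) in shPhf5a and -0.14 (SE 0.06, adjusted p = 0.0934) in shPaf1, and only the first passed.

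Among the Prpf genes, Prpf8 is a U5 snRNP protein that lies at the catalytic centre of the spliceosome, and Prpf6 bridges U5 and U4/U6. Prpf8 read 12.45, 12.37 and 12.46 on the shPhf5a arrays, 12.26, 12.31 and 12.30 on the shPaf1 arrays and 12.02, 12.04 and 12.06 on the shControl arrays. All 3 groups were separate, in the order shPhf5a, shPaf1 and shControl from high to low. Its difference was 0.39 (SE 0.04, adjusted p = 0.00012) in shPhf5a and 0.25 (SE 0.04, adjusted p = 0.00149) in shPaf1. The direct difference of 0.14 (SE 0.04, adjusted p = 0.0426) was lost without shPhf5a replicate 1 or 3, shPaf1 replicate 1, 2 or 3 or shControl replicate 1, 2 or 3 (adjusted p = 0.0578 to 0.126). Prpf6 differed by -0.05 in shPhf5a and 0.02 in shPaf1 and did not pass in either.

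Prpf3, Prpf4 and Prpf31 belong to the U4/U6 snRNP. Prpf3 read 9.85, 10.22 and 10.13 on the shPhf5a arrays, 9.89, 9.99 and 9.99 on the shPaf1 arrays and 10.40, 10.42 and 10.42 on the shControl arrays. Prpf4 read 10.06, 10.25 and 10.15 on the shPhf5a arrays, 9.84, 9.90 and 9.97 on the shPaf1 arrays and 10.41, 10.34 and 10.36 on the shControl arrays. All knockdown arrays lay below the controls in both, and shPaf1 lay below shPhf5a in Prpf4 while the knockdowns overlapped in Prpf3. Prpf3 differed by -0.35 (SE 0.09, adjusted p = 0.0101) in shPhf5a and -0.46 (SE 0.09, adjusted p = 0.00217) in shPaf1, and Prpf4 by -0.22 (SE 0.06, adjusted p = 0.018) in shPhf5a and -0.47 (SE 0.06, adjusted p = 0.000207) in shPaf1. The fall of Prpf4 in shPhf5a was lost without shPhf5a replicate 1 or shControl replicate 1 (adjusted p = 0.0567 to 0.0662). The direct difference of Prpf4 was 0.25 (SE 0.06, adjusted p = 0.0107).

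Prpf31, whose protein holds U4 and U6 RNA together with Prpf3 and Prpf4, was 1 of 2 genes called in opposite directions in the knockdowns, as were 2.07% of all genes tested. It read 9.82, 9.99 and 9.94 on the shPhf5a arrays, 10.45, 10.34 and 10.40 on the shPaf1 arrays and 10.18, 10.17 and 10.18 on the shControl arrays. The shPhf5a arrays lay below the controls and the shPaf1 arrays above them, without overlap. Its difference was -0.26 (SE 0.06, adjusted p = 0.00425) in shPhf5a and 0.22 (SE 0.06, adjusted p = 0.0108) in shPaf1, and the direct difference, shPhf5a minus shPaf1, was -0.48 (SE 0.06, adjusted p = 0.000178).

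Prpf39, whose yeast counterpart belongs to the U1 snRNP, read 10.02, 9.99 and 10.23 on the shPhf5a arrays, 9.24, 9.34 and 9.15 on the shPaf1 arrays and 8.94, 9.12 and 9.03 on the shControl arrays. The shPhf5a arrays lay far above both other groups, and the shPaf1 arrays slightly above the controls. It rose by 1.05 in shPhf5a (SE 0.08, adjusted p = 1.29e-05), a 2.08-fold rise, and its value in shPaf1 was 0.21 (SE 0.08, adjusted p = 0.0644). The direct difference was 0.84 (SE 0.08, adjusted p = 5.45e-05). Prpf38a, which joins before the spliceosome is activated, read 10.06, 10.22 and 10.16 on the shPhf5a arrays, 9.74, 9.76 and 9.94 on the shPaf1 arrays and 10.45, 10.50 and 10.41 on the shControl arrays, with shPaf1 lowest and no overlap. Its difference was -0.31 (SE 0.07, adjusted p = 0.00442) in shPhf5a and -0.64 (SE 0.07, adjusted p = 5.22e-05) in shPaf1, and the direct difference was 0.33 (SE 0.07, adjusted p = 0.00403). Its paralogue Prpf38b read 7.33, 7.91 and 7.97 on the shPhf5a arrays, 8.16, 8.25 and 8.24 on the shPaf1 arrays and 8.17, 8.24 and 8.15 on the shControl arrays. Here shPhf5a alone lay below the controls, replicate 1 furthest.

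The difference of Prpf38b was -0.45 (SE 0.14, adjusted p = 0.0274) in shPhf5a and 0.03 (SE 0.14, adjusted p = 0.924) in shPaf1. Its fall in shPhf5a was lost without shControl replicate 1, 2 or 3 (adjusted p = 0.0599 to 0.0846), and the difference was -0.25 without shPhf5a replicate 1. Between the knockdowns Prpf38b differed by -0.48 (SE 0.14, adjusted p = 0.0271), which was lost without shPaf1 replicate 1, 2 or 3 (adjusted p = 0.0583 to 0.0829), and the difference was -0.28 without shPhf5a replicate 1. Prpf4b, a kinase of the tri-snRNP, fell by 0.16 in shPhf5a (adjusted p = 0.0397), a call lost without shPhf5a replicate 1 or 3, shPaf1 replicate 2 or 3 or shControl replicate 1, 2 or 3 (adjusted p = 0.0547 to 0.136). Prpf18, of the second catalytic step, Prpf19, the ubiquitin ligase that names the Prpf19 complex, and Prpf40b, a relative of a yeast U1 protein, did not pass in either knockdown, with differences from -0.15 to -0.03 in shPhf5a and from -0.01 to 0.01 in shPaf1.

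Among the Srsf genes, Srsf2 and Srsf3, classical SR proteins, fell in both knockdowns. Srsf2 read 11.97, 12.23 and 11.88 on the shPhf5a arrays, 11.93, 11.97 and 11.91 on the shPaf1 arrays and 12.46, 12.45 and 12.48 on the shControl arrays. Srsf3 read 10.29, 10.39 and 10.30 on the shPhf5a arrays, 9.94, 10.09 and 10.09 on the shPaf1 arrays and 10.70, 10.74 and 10.56 on the shControl arrays. All knockdown arrays lay below the controls in both genes, and shPaf1 lay below shPhf5a in Srsf3. Srsf2 differed by -0.44 (SE 0.08, adjusted p = 0.00161) in shPhf5a and -0.53 (SE 0.08, adjusted p = 0.00052) in shPaf1, and Srsf3 by -0.34 (SE 0.06, adjusted p = 0.00214) in shPhf5a and -0.63 (SE 0.06, adjusted p = 5.21e-05) in shPaf1. The direct difference of Srsf3 was 0.29 (SE 0.06, adjusted p = 0.00821). Srsf6 read 10.85, 10.98 and 10.94 on the shPhf5a arrays, 10.92, 10.93 and 10.89 on the shPaf1 arrays and 11.10, 11.08 and 11.12 on the shControl arrays, with small falls and no overlap with the controls. Its difference was -0.18 (SE 0.05, adjusted p = 0.0144) in shPhf5a and -0.19 (SE 0.05, adjusted p = 0.0116) in shPaf1.

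Srsf12, an SR-related protein known in human to counteract classical SR proteins, rose in both knockdowns. It read 7.89, 7.89 and 7.67 on the shPhf5a arrays, 7.68, 7.78 and 7.73 on the shPaf1 arrays and 7.21, 7.15 and 7.15 on the shControl arrays. All 6 knockdown arrays lay above the controls and overlapped each other. Its difference was 0.65 (SE 0.07, adjusted p = 6.5e-05) in shPhf5a and 0.56 (SE 0.07, adjusted p = 0.000121) in shPaf1. Srsf10, another SR-related protein with a repressor role, differed by -0.05 and -0.16 and did not pass in either knockdown.

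Srsf5 was the other gene called in opposite directions. It read 10.84, 11.02 and 11.04 on the shPhf5a arrays, 10.29, 10.35 and 10.50 on the shPaf1 arrays and 10.71, 10.73 and 10.71 on the shControl arrays. The shPhf5a arrays lay above the controls and the shPaf1 arrays below them, without overlap. Its difference was 0.25 (SE 0.07, adjusted p = 0.0177) in shPhf5a and -0.34 (SE 0.07, adjusted p = 0.00343) in shPaf1, and the direct difference, shPhf5a minus shPaf1, was 0.58 (SE 0.07, adjusted p = 0.000204). The rise in shPhf5a was lost without shPhf5a replicate 3 or shControl replicate 1 or 3 (adjusted p = 0.051 to 0.0684). With arrays centred on their medians, 1 of the 70 genes was called in opposite directions, and with quantile normalization 4 were.

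Of the remaining Srsf genes, Srsf1 fell by 0.20 in shPaf1 (adjusted p = 0.021), a call lost without shPaf1 replicate 1 or shControl replicate 2 or 3 (adjusted p = 0.0559 to 0.0804). The second, dimmer probe set of Srsf1 was lower in shPaf1 by 0.65 (adjusted p = 2.8e-05 over all probe sets). Srsf4, Srsf9 and Srsf11 did not pass in either knockdown, with differences from -0.32 to -0.08 in shPhf5a and from -0.09 to 0.04 in shPaf1. Srsf9 differed between the knockdowns by -0.36 (SE 0.12, adjusted p = 0.0488), which was lost without shPhf5a replicate 1 or 3, shPaf1 replicate 2 or 3 or shControl replicate 1, 2 or 3 (adjusted p = 0.0716 to 0.167).

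Among the Hnrnp genes, Hnrnpul1 and Hnrnpul2, relatives of hnRNP U, rose in both knockdowns. Hnrnpul1 read 10.97, 10.90 and 10.90 on the shPhf5a arrays, 11.12, 11.18 and 11.17 on the shPaf1 arrays and 10.65, 10.65 and 10.65 on the shControl arrays. Hnrnpul2 read 10.09, 10.30 and 10.40 on the shPhf5a arrays, 10.39, 10.52 and 10.51 on the shPaf1 arrays and 9.99, 10.03 and 10.04 on the shControl arrays. All knockdown arrays lay above the controls, and shPaf1 lay above shPhf5a in Hnrnpul1. Hnrnpul1 differed by 0.27 (SE 0.04, adjusted p = 0.000743) in shPhf5a and 0.51 (SE 0.04, adjusted p = 1.68e-05) in shPaf1, with a direct difference of -0.23 (SE 0.04, adjusted p = 0.00288). Hnrnpul2 differed by 0.25 (SE 0.08, adjusted p = 0.0306) in shPhf5a and 0.45 (SE 0.08, adjusted p = 0.00116) in shPaf1. The rise of Hnrnpul2 in shPhf5a was lost without shPhf5a replicate 2 or 3 or shControl replicate 1, 2 or 3 (adjusted p = 0.063 to 0.111). As the mean over its 2 probe sets, Hnrnpul1 differed by -0.065 in shPaf1 (adjusted p = 0.445), so that its direction depended on the probe set.

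Hnrnpll, which regulates Ptprc splicing in T cells, fell in both knockdowns. It read 9.35, 9.61 and 9.53 on the shPhf5a arrays, 9.21, 9.39 and 9.31 on the shPaf1 arrays and 9.91, 9.90 and 9.86 on the shControl arrays. All knockdown arrays lay below the controls and the knockdowns overlapped. Its difference was -0.40 (SE 0.07, adjusted p = 0.00168) in shPhf5a and -0.59 (SE 0.07, adjusted p = 0.000153) in shPaf1. Hnrnpf, a binder of G tracts, read 10.90, 11.12 and 11.10 on the shPhf5a arrays, 11.09, 11.02 and 11.16 on the shPaf1 arrays and 11.32, 11.30 and 11.33 on the shControl arrays, also below the controls on all knockdown arrays. Its difference was -0.28 (SE 0.07, adjusted p = 0.00739) in shPhf5a and -0.23 (SE 0.07, adjusted p = 0.0213) in shPaf1. The fall of Hnrnpf in shPaf1 was lost without shPaf1 replicate 1 or 2 or shControl replicate 1, 2 or 3 (adjusted p = 0.0522 to 0.0855). Dimmer probe sets of Hnrnpf also fell in shPaf1 in the test over all probe sets (adjusted p = 0.00976, 0.0119 and 5.22e-06). The dimmest one did not pass there (adjusted p = 0.236).

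Hnrnpm and Hnrnpr fell in shPaf1. Hnrnpm, which binds GU-rich RNA, read 10.58, 10.83 and 10.72 on the shPhf5a arrays, 10.23, 10.23 and 10.25 on the shPaf1 arrays and 10.81, 10.74 and 10.82 on the shControl arrays. Its shPaf1 arrays lay below all others, while shPhf5a overlapped the controls. Its difference was -0.08 (SE 0.06, adjusted p = 0.358) in shPhf5a and -0.56 (SE 0.06, adjusted p = 8.89e-05) in shPaf1, and the direct difference was 0.47 (SE 0.06, adjusted p = 0.000392). Hnrnpr, a paralogue of Syncrip, read 9.08, 9.42 and 9.41 on the shPhf5a arrays, 8.51, 8.62 and 8.71 on the shPaf1 arrays and 9.11, 9.17 and 9.14 on the shControl arrays. Again only shPaf1 lay apart from the controls. Its difference was 0.16 (SE 0.09, adjusted p = 0.201) in shPhf5a and -0.53 (SE 0.09, adjusted p = 0.00122) in shPaf1, and the direct difference was 0.69 (SE 0.09, adjusted p = 0.000376).

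Hnrnpa2b1 and Hnrnpa0 belong to the A and B type hnRNPs. Hnrnpa2b1 read 11.37, 11.40 and 11.49 on the shPhf5a arrays, 11.13, 11.09 and 11.20 on the shPaf1 arrays and 11.28, 11.27 and 11.21 on the shControl arrays. Hnrnpa0 read 8.71, 9.27 and 8.89 on the shPhf5a arrays, 9.18, 9.18 and 9.18 on the shPaf1 arrays and 9.31, 9.27 and 9.34 on the shControl arrays, with the same rounded value on all shPaf1 arrays. Hnrnpa2b1 was highest in shPhf5a, and Hnrnpa0 lowest there on replicates 1 and 3. Hnrnpa2b1 differed by 0.17 (SE 0.05, adjusted p = 0.0281) in shPhf5a and -0.11 (SE 0.05, adjusted p = 0.129) in shPaf1, and the direct difference was 0.28 (SE 0.05, adjusted p = 0.00264). The rise of Hnrnpa2b1 in shPhf5a was lost without shPhf5a replicate 3 or shControl replicate 1, 2 or 3 (adjusted p = 0.0517 to 0.1). Hnrnpa0 differed by -0.35 (SE 0.11, adjusted p = 0.035) in shPhf5a and -0.13 (SE 0.11, adjusted p = 0.467) in shPaf1. The fall of Hnrnpa0 in shPhf5a was lost without shPhf5a replicate 1 or 3, shPaf1 replicate 1, 2 or 3 or shControl replicate 1, 2 or 3 (adjusted p = 0.0537 to 0.11), and the difference was -0.23 without shPhf5a replicate 1. Hnrnpab fell by 0.21 in shPhf5a (adjusted p = 0.0479), a call lost without shPhf5a replicate 1 or 3, shPaf1 replicate 1, 2 or 3 or shControl replicate 1, 2 or 3 (adjusted p = 0.0538 to 0.145). Hnrnpa3 did not pass against shControl in either knockdown (0.22 in shPhf5a and -0.28 in shPaf1), but the knockdowns differed by 0.49 (SE 0.11, adjusted p = 0.0062).

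Of the other Hnrnp genes, Hnrnpc, which binds uridine tracts, fell by 0.21 in shPhf5a (adjusted p = 0.00723) and by 0.34 in shPaf1 (adjusted p = 0.00045). Hnrnpd, which binds AU-rich elements, and Hnrnph2 fell in shPaf1 by 0.42 (adjusted p = 0.000189) and 0.52 (adjusted p = 0.0021). On the probe sets used, neither passed in shPhf5a. Their second probe sets fell in shPhf5a by 0.32 (adjusted p = 0.032 over all probe sets) and 0.28 (adjusted p = 0.0312). In shPaf1 the second probe set of Hnrnpd also fell, and that of Hnrnph2 did not pass. Hnrnpdl fell in shPaf1 by 0.18 (adjusted p = 0.0296), a call lost without shPaf1 replicate 1 or 2 or shControl replicate 2 or 3 (adjusted p = 0.065 to 0.115). On the probe sets used, Hnrnph1, Hnrnpk, Hnrnpl, Hnrnpu and Hnrnpa1l2-ps2 did not pass in either knockdown. Their differences ran from -0.15 to 0.08 in shPhf5a and from -0.09 to 0.07 in shPaf1. Other probe sets of Hnrnpk and Hnrnpu did change, as given with the other probe sets. The probe set of Hnrnpa1l2-ps2 had a mean control level of 4.73, among the lowest values of the arrays, which ran from 4.35 to 13.69.

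Set against each other directly, shPhf5a minus shPaf1, 14 of the 70 genes were higher and 10 lower, or 34.3%, and 29% of all genes tested were called, 12.7% as higher and 16.3% as lower. Among genes brighter than 10.12 the called share was 48.3% (22.5% higher, 25.8% lower). Arrays of the knockdowns did not overlap for 33 of the 70, against 37.7% of all genes. Of the 19 Hnrnp genes 5 were higher (26.3%) and 1 lower (5.26%) in shPhf5a than in shPaf1, with a median of 0.038. Of the 14 Lsm genes 1 was higher (7.14%) and 5 lower (35.7%), with a median of -0.16. Called shares were 31.6% for Hnrnp and 42.9% for Lsm genes. The Hnrnp share lay near that of all genes, and its higher share near that of the bright genes. Groups were not tested against each other. The largest positive differences were those of Prpf39, Hnrnpr and Rbm17, and the largest negative ones those of Lsm2, Lsm5 and Lsm7, all given above. The count of lower genes was 16 without shPhf5a replicate 2, when 19.2% of all genes were called lower, and 6 without shPaf1 replicate 1.

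Of the 70 genes, 59 had 1 probe set of a single symbol and 11 had several, of which the brightest was used. The probe sets of a gene had the same sign and a similar size for Lsm7, whose second probe set differed by -1.14 (SE 0.10) in shPhf5a and -0.73 (SE 0.10) in shPaf1, and for U2af1l4, whose second differed by -0.62 (SE 0.17) in shPhf5a and -0.71 (SE 0.17) in shPaf1. They did not for Snrpd1 and several hnRNP and SR genes. The probe set of Snrpd1 used here differed by -0.52 (SE 0.12) in shPhf5a and -0.22 (SE 0.12) in shPaf1, and its second one, with a mean level of 8.61, by -0.69 (SE 0.15) in shPhf5a and -0.73 (SE 0.15) in shPaf1. The second difference of that probe set passed the test over all probe sets (adjusted p = 0.00544), whereas that of the first did not (adjusted p = 0.204). The brightest probe set of Hnrnpk, a KH-domain protein that binds cytosine-rich tracts, differed by -0.06 (SE 0.04) in shPhf5a and -0.09 (SE 0.04) in shPaf1. Its second, with a mean level of 11.23, differed by -0.25 (SE 0.07) in shPhf5a and -0.47 (SE 0.07) in shPaf1. Both passed the test over all probe sets (adjusted p = 0.0194 and 0.000629). The dimmest, with a mean level of 8.58, read 9.0, 9.13 and 8.84 on the shPhf5a arrays, 7.49, 7.0 and 6.46 on the shPaf1 arrays and 9.69, 9.93 and 9.72 on the shControl arrays. It was lowest on all shPaf1 arrays and differed by -0.79 (SE 0.22) in shPhf5a and -2.80 (SE 0.22) in shPaf1.

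A dim probe set of Hnrnpf read 7.57, 7.82 and 7.71 on the shPhf5a arrays, 6.66, 6.24 and 6.44 on the shPaf1 arrays and 8.14, 8.17 and 8.11 on the shControl arrays, with a difference of -0.44 (SE 0.10) in shPhf5a and -1.69 (SE 0.10) in shPaf1, while its other 4 probe sets lay between -0.32 and -0.14 in shPaf1. The dimmer probe set of Srsf6 read 6.79, 7.45 and 7.11 on the shPhf5a arrays, 5.99, 6.32 and 5.99 on the shPaf1 arrays and 8.02, 8.04 and 8.04 on the shControl arrays. It differed by -0.92 (SE 0.15) in shPhf5a and -1.94 (SE 0.15) in shPaf1, against -0.18 (SE 0.05) in shPhf5a and -0.19 (SE 0.05) in shPaf1 for the brighter one. In both genes the 3 shPaf1 arrays of the dim probe set were the lowest of all. The second probe set of Hnrnpul1 differed by -0.17 (SE 0.10) in shPhf5a and -0.64 (SE 0.10) in shPaf1, opposite to its brightest one, and that of Srsf1 by -0.06 (SE 0.05) in shPhf5a and -0.65 (SE 0.05) in shPaf1. For Hnrnpu the second probe set differed by 0.77 (SE 0.10) in shPhf5a and -0.01 (SE 0.10) in shPaf1, and for Hnrnpd by -0.32 (SE 0.10) in shPhf5a and -0.74 (SE 0.10) in shPaf1. The second probe set of Hnrnph2 differed by -0.28 (SE 0.08) in shPhf5a and -0.02 (SE 0.08, adjusted p = 0.909 over all probe sets) in shPaf1, where its brightest one had fallen. The direct difference of Hnrnph2, shPhf5a minus shPaf1, was 0.28 (SE 0.10) for the brightest and -0.26 (SE 0.08) for the second, and neither passed (adjusted p = 0.0839 and 0.0533). Which exons a probe set covers was not used here, and the reason for the disagreement was not tested.

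**Figure D5:**
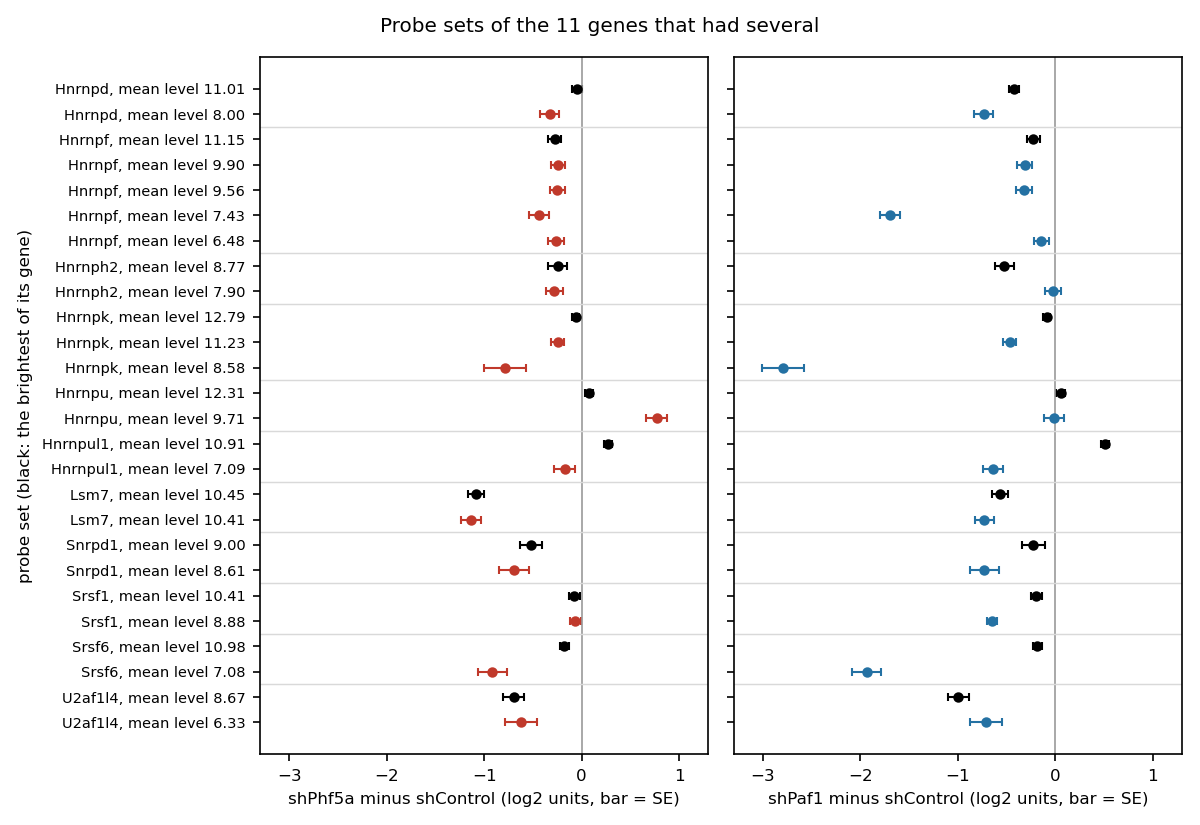
Difference from shControl in log2 units, with its SE, for every probe set of the 11 genes that had several, in shPhf5a (left) and shPaf1 (right); black marks the brightest probe set of a gene, and row labels give mean log2 levels. Dim probe sets of Hnrnpk, Hnrnpf and Srsf6 lie far below 0 in shPaf1, at -2.80, -1.69 and -1.94, while their brightest probe sets lie between -0.23 and -0.09.

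Further genes were taken from 7 lists of 105 measured spliceosome and splicing genes. In shPhf5a 42 of the 105 fell and 27 rose (median -0.10), and in shPaf1 39 fell and 16 rose (median -0.10). The called shares were 65.7% in shPhf5a and 52.4% in shPaf1. Among all genes they were 37.4% and 35.8%, and among genes brighter than 10.12 they were 63.8% and 62.2%. That cut is the median level of the 70 genes. The 105 were not matched to it, and some of them were dimmer. Over all genes 20.7% fell and 16.7% rose in shPhf5a, and 17.8% fell and 18% rose in shPaf1. The lists below were not tested against these shares. The SMN complex and its partners, which load Sm proteins onto snRNA, had 11 measured members. Of these, 10 fell and 0 rose in shPhf5a (median -0.33), and 6 fell and 1 rose in shPaf1 (median -0.25). Gemin2, which holds the Sm pentamer, read 7.43, 8.20 and 7.87 on the shPhf5a arrays, 8.16, 8.01 and 8.05 on the shPaf1 arrays and 9.15, 9.23 and 9.11 on the shControl arrays. Gemin6 read 6.63, 7.50 and 6.96 on the shPhf5a arrays, 6.76, 6.78 and 6.98 on the shPaf1 arrays and 8.11, 8.34 and 8.07 on the shControl arrays. Both were lower on all 6 knockdown arrays than on any control array. Gemin2 differed by -1.33 (SE 0.16, adjusted p = 0.000133) in shPhf5a and -1.09 (SE 0.16, adjusted p = 0.000377) in shPaf1, and Gemin6 by -1.14 (SE 0.18, adjusted p = 0.000827) in shPhf5a and -1.33 (SE 0.18, adjusted p = 0.000308) in shPaf1. Gemin5, which recognises snRNA, rose by 0.22 in shPaf1 (adjusted p = 0.00311) and fell by 0.25 in shPhf5a (adjusted p = 0.00134), with a direct difference of -0.47 (SE 0.04, adjusted p = 5.19e-05).

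Of 20 measured U4/U6.U5 and minor spliceosome proteins, 10 fell and 5 rose in shPhf5a, and 7 fell and 3 rose in shPaf1. Snrnp25, of the minor spliceosome, fell by 1.27 in shPhf5a (adjusted p = 0.000104) and by 0.72 in shPaf1 (adjusted p = 0.00261). Zmat5, also of the minor spliceosome, fell by 0.67 in shPhf5a (adjusted p = 0.000825) and differed by 0.13 in shPaf1 (adjusted p = 0.409). Zmat2 fell by 0.63 in shPhf5a (adjusted p = 0.00269) and by 0.54 in shPaf1 (adjusted p = 0.0068). The U5 helicase Snrnp200 rose by 0.56 in shPhf5a (adjusted p = 2.69e-05) and differed by 0.12 in shPaf1 (adjusted p = 0.0994). The minor spliceosome protein Snrnp35 rose by 0.51 in shPhf5a (adjusted p = 8.58e-05) and by 0.16 in shPaf1 (adjusted p = 0.0434), of which the second was lost without shPaf1 replicate 1, 2 or 3 or shControl replicate 1 or 2 (adjusted p = 0.0583 to 0.152). The tri-snRNP protein Sart1 differed by 0.13 in shPhf5a (adjusted p = 0.0906) and rose by 0.33 in shPaf1 (adjusted p = 0.000844).

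Of 17 proteins of the Prpf19 complex and the catalytic steps, 7 fell and 3 rose in shPhf5a, and 6 fell and 3 rose in shPaf1. Cwc22, which deposits the exon junction complex, rose by 1.24 in shPhf5a (adjusted p = 6.66e-05) and 1.75 in shPaf1 (adjusted p = 7.43e-06). The second-step factor Slu7 rose by 0.51 in shPhf5a (adjusted p = 0.000345) and 0.48 in shPaf1 (adjusted p = 0.000425), and Rbm22, which contacts the catalytic RNA, by 0.49 in shPhf5a (adjusted p = 8.84e-05) and 0.51 in shPaf1 (adjusted p = 5.19e-05). Bcas2, a subunit of the Prpf19 complex, fell by 1.20 in shPhf5a (adjusted p = 3.87e-05) and by 0.33 in shPaf1 (adjusted p = 0.043). The fall of Bcas2 in shPaf1 was lost without shPhf5a replicate 3, shPaf1 replicate 1, 2 or 3 or shControl replicate 1, 2 or 3 (adjusted p = 0.0524 to 0.15). Isy1 fell by 1.03 in shPhf5a (adjusted p = 0.000589) and 1.01 in shPaf1 (adjusted p = 0.00065), and Plrg1 by 0.30 in shPhf5a (adjusted p = 0.00739) and 0.67 in shPaf1 (adjusted p = 5.56e-05). Of 11 helicases 4 rose and 2 fell in shPhf5a, and 3 rose and 2 fell in shPaf1. The intron-binding helicase Aqr rose by 0.59 in shPhf5a (adjusted p = 3.89e-05) and 0.47 in shPaf1 (adjusted p = 0.000113).

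Of 14 measured SR protein kinases and SR-related proteins, 3 fell and 5 rose in shPhf5a, and 4 fell and 3 rose in shPaf1. The kinases Srpk1 and Srpk2, which phosphorylate SR proteins, fell in shPhf5a by 0.54 (adjusted p = 0.000314) and 0.58 (adjusted p = 0.00041), and in shPaf1 by 0.27 (adjusted p = 0.0166) and 0.26 (adjusted p = 0.0347). In shPaf1 the fall of Srpk1 was lost without shPaf1 replicate 1 or shControl replicate 2 (adjusted p = 0.056 to 0.0671), and that of Srpk2 without shPaf1 replicate 1 or 3 or shControl replicate 2 or 3 (adjusted p = 0.0873 to 0.122). The scaffold protein Srrm2 rose by 0.38 in shPhf5a (adjusted p = 0.00152) and 0.33 in shPaf1 (adjusted p = 0.00333). Son, a nuclear speckle protein, differed by 0.09 in shPhf5a (adjusted p = 0.333) and fell by 0.40 in shPaf1 (adjusted p = 0.000924). Of 22 measured hnRNP-like and other regulators, 5 fell and 7 rose in shPhf5a, and 8 fell and 2 rose in shPaf1.

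Mbnl2, a regulator of alternative splicing, read 11.29, 10.76 and 11.14 on the shPhf5a arrays, 10.08, 10.19 and 10.19 on the shPaf1 arrays and 9.29, 9.27 and 9.19 on the shControl arrays. It was higher on every knockdown array than on any control array, and highest in shPhf5a. It differed by 1.81 (SE 0.11, adjusted p = 5.11e-06) in shPhf5a and 0.90 (SE 0.11, adjusted p = 0.00017) in shPaf1. Its paralogue Mbnl1, which favours splicing patterns of differentiated cells, rose by 0.83 in shPhf5a (adjusted p = 0.000153) and fell by 0.35 in shPaf1 (adjusted p = 0.0209), a fall that was lost without shPaf1 replicate 3 or shControl replicate 1, 2 or 3 (adjusted p = 0.0528 to 0.0818). Ptbp2, the neuronal polypyrimidine tract binding protein, rose by 0.29 in shPhf5a (adjusted p = 0.00109) and fell by 0.66 in shPaf1 (adjusted p = 8.1e-06). The direct differences, shPhf5a minus shPaf1, were 1.18 (SE 0.10, adjusted p = 2.96e-05) for Mbnl1 and 0.96 (SE 0.05, adjusted p = 2.36e-06) for Ptbp2. Of the 10 SF3a and SF3b subunits, Phf5a included, 5 fell and 3 rose in shPhf5a, and 6 fell and 1 rose in shPaf1.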

How the data were processed

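Total RNA from 3 arrays each of shPhf5a, shPaf1 and shControl embryonic stem cells was extracted with a column kit, and per the labels' protocols cDNA made from 125 ng was biotin-labelled with whole-transcript kits. The authors deposited 1 expression value per probe set and array, which was taken as log2 from the range of the values (4.35 to 13.69). How they were normalized, with which software and to which log base is not given in the sources used here. Another base would alter fold changes but not calls. Without scan dates or slides, which were not used here, batches could not be tested.

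The platform annotation gave 1 gene symbol to 23521 of the 33793 probe sets, several to 1814 and did not list 8458. A gene was represented by its brightest probe set over the 9 arrays, which left 22180 genes. All 70 genes were matched to the RefSeq gene table by ID with the same symbol. Samples were grouped by their titles. limma 3.58.1 in R 4.3.3 (lmFit, eBayes) fitted 1 mean per group over all 9 arrays, and p-values were adjusted over all genes by Benjamini-Hochberg, with 0.05 as the threshold. Data for shPhf5a against shControl were simulated over 22180 genes, with independent normal noise and only a small part of the genes changed. Among the changed genes the test called 80.6% of changes of 0.5 log2 units, 92.5% of those of 1 and 100% of those of 2. In the real data 37.4% of all genes were called, so these shares do not measure how often real changes were found. Tables and figures were made with Python 3.11.15.

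The members and the lists were chosen with earlier results of these data known. Arrays are given one by one for the 3 genes added by name, for up to 3 called genes with the largest rise and up to 3 with the largest fall in each prefix group and comparison with shControl, for genes called in opposite directions, and for up to 3 genes per direction in the direct contrast; of each further list up to 2 called genes per direction and comparison could be named. Further genes of the 70 are named to account for all of them, and Gemin5, Mbnl1 and Ptbp2 are described for their opposite signs, which were seen first. Protein sequences are not shown. Replicate numbers are shared by the groups, but arrays of one number did not deviate together (correlations of deviations from -0.0578 to 0.106), so that the groups were not paired. The alternatives comprised array centring, quantile normalization, array weights, a robust trended variance, restriction to genes above the median level, averaging of probe sets, use of all probe sets, fits of the 6 arrays compared, a replicate block and leaving out each array. The split by brightness, the subsets by role and the split by gene span were added after seeing the data.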

Additional observations from a re-analysis of the deposited data

Results flagged for a closer look

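Both genes below were singled out because a test of the difference between the knockdowns passed while each moved to the other side of shControl. Prpf31 was lower in shPhf5a and higher in shPaf1 than in shControl, with a direct difference, shPhf5a minus shPaf1, of -0.48 (limma, adjusted p = 0.000178). Srsf5 was higher in shPhf5a and lower in shPaf1, with a direct difference of 0.58 (limma, adjusted p = 0.000204). The rise of Srsf5 in shPhf5a was lost without shPhf5a replicate 3 or shControl replicate 1 or 3. Of all genes tested, 2.07% were called in opposite directions. For both genes the 3 groups of arrays were separate. Each has 1 probe set of a single symbol.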

How the results depend on the processing

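Of the 45 calls in shPhf5a, 30 were kept under every alternative, as were 29 of 37 in shPaf1 and 17 of 24 in the direct contrast. The other counts of the 70 genes stayed within 1.5 times except these. Lower genes in the direct contrast numbered 17 with array weights and 6 to 16 when each array was left out. Lower genes among the other spliceosome genes in the direct contrast numbered 16 with only the 6 arrays compared and 16 to 34 when each array was left out. Genes in opposite directions numbered 4 after quantile normalization, 1 after centring, 4 with array weights and 1 to 4 when each array was left out.

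After quantile normalization the median of all 70 was -0.13 in shPhf5a and 0.0022 in the direct contrast (-0.038 otherwise). Under it the Hnrnp median in shPhf5a was 0.021, that of Srsf -0.019, of Prpf -0.089 and of the 3 added genes -0.051, and in shPaf1 the median of all 70 was -0.12, of Srsf -0.11, of Prpf -0.012, of Hnrnp -0.081 and of the added genes -0.056. After centring, the Hnrnp median in shPhf5a was -0.089, and in shPaf1 that of all 70 was -0.20 and of Prpf -0.011. As means over probe sets, the Hnrnp median was -0.083 in shPhf5a and 0.16 in the direct contrast, and in shPaf1 the medians were -0.20 for all 70, -0.36 for Snrp and -0.25 for Srsf. Over genes above the median level the direct Hnrnp median was 0.082. When each array was left out, the direct median of all 70 ran from -0.075 (without shPhf5a replicate 2) to 0.027 (without shPhf5a replicate 1), and the shPhf5a medians from -0.13 to -0.052 for Srsf and from -0.063 to -0.030 for Hnrnp genes. The shPaf1 medians ran from -0.19 to -0.17 for all 70, from -0.0081 to 0.0355 for Prpf and from -0.27 to -0.22 for Lsm genes. The causes of these shifts were not tested.

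As means over probe sets, 3 values changed sign: Hnrnpul1 was -0.065 in shPaf1 (adjusted p = 0.445) and 0.12 in the direct contrast (adjusted p = 0.173), and Hnrnpf was 0.25 in the direct contrast (adjusted p = 0.00958). With a replicate block 9 genes rose and 35 fell in shPhf5a, 6 rose and 32 fell in shPaf1, 15 were higher and 12 lower in the direct contrast, and 2 were in opposite directions, so that the block left these counts within 1.5 times; the arrays share only a number. The number of arrays and 1 hairpin per target limit all results, as do probe sets whose exons are unknown here and the unknown normalization; signal over background was not given, so that values near the lowest levels may hold little signal.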

Other observations

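The 70 genes also differed in length. By RefSeq genomic span, split at the median of 13.11 kb, 22 of the 35 shorter genes fell and 3 rose in shPhf5a (median -0.34), and 14 of the 35 longer ones fell and 6 rose (median -0.12). In shPaf1 18 of the shorter genes fell and 2 rose (median -0.22), and 13 of the longer fell and 4 rose (median -0.12). In the direct contrast 9 of the shorter genes were lower and 6 higher in shPhf5a than in shPaf1, against 1 lower and 8 higher among the longer. Over all 21991 genes with a span and at the same split, 21.1% of the shorter and 20.5% of the longer fell in shPhf5a, 17.1% and 18.3% in shPaf1, and 13.2% and 19% were lower in the direct contrast. Spearman's rho between span and difference across the 70 genes was 0.394 in shPhf5a and 0.211 in shPaf1. Across all genes it was 0.118 in shPhf5a and 0.126 in shPaf1, and across 2096 bright genes 0.256 in shPhf5a and 0.221 in shPaf1. Of those bright genes 53.3% of the shorter and 36.7% of the longer fell in shPhf5a, 49% and 34.9% in shPaf1, and 27.6% and 24.9% were lower in the direct contrast. Genes on the same arrays are not independent replicates, short genes can differ from long ones in level and base composition, and these values are a description.

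5 genes of the same families, Hnrnpa1, Hnrnph3, Snrpa, Snrpf and Snrpn, were measured only by probe sets that carry several symbols and were not among the 70. The brighter probe set of Snrpn, an Sm protein of imprinted expression, and its host transcript Snurf read 10.92, 11.44 and 11.01 on the shPhf5a arrays, 11.60, 11.62 and 11.70 on the shPaf1 arrays and 11.72, 11.73 and 11.70 on the shControl arrays. It was low in shPhf5a, replicates 1 and 3 most, and differed by -0.59 in shPhf5a (limma over all probe sets, adjusted p = 0.00375) and -0.08 in shPaf1 (adjusted p = 0.705). The dimmer probe set of the same symbols, with a mean level of 6.79, did not pass in either knockdown. Its differences were -0.07 in shPhf5a (adjusted p = 0.536) and -0.10 in shPaf1 (adjusted p = 0.354). The probe set of Snrpa (U1-A) and 2 predicted genes differed by -0.31 in shPhf5a (adjusted p = 0.00101) and -0.32 in shPaf1 (adjusted p = 0.000744). Both probe sets of Hnrnpa1 fell in shPaf1, by 0.22 (adjusted p = 0.0293) and 0.30 (adjusted p = 0.0472). In shPhf5a they differed by -0.16 (adjusted p = 0.0883) and -0.23 (adjusted p = 0.12). Those of Snrpf (-0.22 in shPhf5a, -0.29 in shPaf1) and Hnrnph3 (0.07 in shPhf5a, -0.13 in shPaf1) did not pass in either knockdown. The signal of these probe sets cannot be assigned to 1 of their symbols.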
